A study of Homo sapiens with 54 samples.

Results

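The 10 genes described here encode heat shock proteins of the cytosol and of the mitochondrial matrix, and BAG3, a partner of HSP70. The set is HSPA1A, HSPA1B, HSPA8, HSPH1, HSP90AA1, DNAJB1, HSPB1, BAG3, HSPD1 and HSPE1, and it does not hold every such protein. They were chosen by name: a gene of the deposited count table is a member when its symbol is among these names. Each name matched 1 gene, so the members are 10 of the 58870 genes listed, and all 10 passed the filter on low counts in each fit.

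Heat shock proteins are chaperones that bind unfolded proteins, refold them or hand them on for degradation. When unfolded proteins accumulate, the transcription factor HSF1 forms trimers and binds heat shock elements, runs of inverted GAA units, in the promoters of many chaperone genes. HSP70 proteins work with HSP40 and HSP110 partners, HSP90 folds kinases and receptors at a late stage, small heat shock proteins hold unfolded chains in solution, and HSP60 with HSP10 forms the folding chamber of the mitochondrial matrix.

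RNA was sequenced from A549 cells, a human lung adenocarcinoma line, that carried either an insertless vector (EV cells) or a vector expressing USP18, the protease that removes the ubiquitin-like protein ISG15 from its targets (USP18 cells). Both cell types received vehicle (DMSO) or a coded compound for 48 h, which gave 18 groups of 3 libraries, 54 in all. CP2 was given at doses of 2 or 5 µM, and the other compounds, CP14 and CP18, at doses of 1, 2.5 or 5 µM. The labels give the compounds by code with no structure, EV and USP18 cells come from 1 engineered population each, and the sources used here do not say for these RNA libraries whether the 3 replicates of a group were separate cultures, so the p-values below measure the spread between these libraries. The labels name poly(A) capture and the methods text names removal of ribosomal RNA. The counts were not examined for which was done.

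Depth was even across the libraries. The total of expected counts per library ran from 16673228 to 25609062, with a median of 19701304, and 33416 genes had a count in at least 1 library. Levels below are in CPM, the counts scaled to a common library size, from library totals scaled by the trimmed mean of M values. The spread is the SD over the 3 libraries of a group. A gene passed when its p-value, adjusted by the Benjamini-Hochberg method over all genes tested in that comparison, was under 0.05.

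The vectors separated the cells by USP18 level. USP18 was at 10.5, 10.7 and 11.1 CPM in the EV vehicle libraries and at 1312, 1301 and 1336 CPM in the USP18 vehicle libraries, a log2 fold change of 6.92 (SE 0.0366, adjusted p = 1.32e-25). The mean lay between 9.45 and 10.9 CPM in all 9 EV groups and between 988 and 2041 CPM in all 9 USP18 groups. Within USP18 cells the level moved with treatment: it was 1953, 2115 and 2055 CPM with CP14 at 5 µM, 0.64 above vehicle on the log2 scale (SE 0.0341, adjusted p = 3.90e-13). It fell in 6 of the other 7 treated groups: with CP18 the log2 fold change was -0.41, -0.30 and -0.24 at 1, 2.5 and 5 µM, with CP14 -0.33 and -0.14 at 1 and 2.5 µM, and with CP2 at 2 µM -0.09 (adjusted p = 0.0466). With CP2 at 5 µM it was -0.05 (adjusted p = 0.338).

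Epithelial markers were present in all groups, and markers of other cell types were at or near 0, with CD68, COL1A1 and LUM as the exceptions. KRT8 ranged over the group means from 1326 to 6226 CPM, KRT18 from 1712 to 5055 CPM, KRT7 from 1389 to 3373 CPM and KRT19 from 4.22 to 49.7 CPM, while CDH1 had at most 229.5 CPM and EPCAM at most 13.4 CPM. The alveolar type II markers SFTPA1 and SFTPB were at 0, SFTPC did not exceed 0.222 CPM and NKX2-1 did not exceed 0.611 CPM. Among leukocyte markers CD3E and MS4A1 were at 0 and PTPRC did not exceed 0.183 CPM. CD68, a lysosomal protein gene that is also read in many other cells, ranged from 33.1 to 97.4 CPM. The fibroblast markers COL1A1 and LUM ranged from 3.95 to 13.4 CPM and from 0.099 to 1.98 CPM.

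Among the treatments, CP14 at 5 µM moved the epithelial sum, CD68 and the mitochondrial share furthest from vehicle in each cell type. The summed level of the 6 epithelial markers averaged 13114 CPM in EV vehicle cells and 7738 CPM in EV cells with CP14 at 5 µM. In USP18 cells the sums were 8842 CPM with vehicle and 6486 CPM with CP14 at 5 µM. The 6 markers did not all follow the sum. KRT8 was the highest of them with vehicle, at 6148 CPM in EV and 3756 CPM in USP18 cells. With CP14 at 5 µM the highest was KRT7, at 3254 CPM in EV cells and 3373 CPM in USP18 cells. The latter was its highest group mean. CD68 stood at 36.8 CPM in EV vehicle cells, 66.5 CPM in EV cells with CP14 at 5 µM and 97.4 CPM in USP18 cells with that dose. The share of counts in mitochondrially encoded genes was 2.46% to 2.52% in EV vehicle libraries, 1.68% to 1.76% with CP14 at 5 µM in EV cells and 1.10% to 1.19% in USP18 cells. The vehicle groups of the 2 cell types also differed: their epithelial sums were further apart than those of vehicle and CP14 at 5 µM in USP18 cells, and COL1A1 was at 12.4 CPM in EV vehicle and 4.71 CPM in USP18 vehicle cells, against 6.18 CPM with CP14 at 5 µM in EV cells. In USP18 cells the mitochondrial share was 2.13% to 2.59% with vehicle, 2.77% to 3.24% with CP18 at 1 µM and 2.68% to 3.08% with CP14 at 1 µM, and in EV cells the epithelial sum was 12968 to 13190.0 CPM with vehicle and 11061 to 11999 CPM with CP2 at 5 µM. The part of these readings in the results below was not tested. In bulk RNA of this kind, fewer cells with a transcript and less of that transcript per cell cannot be told apart.

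In EV vehicle cells the members differed widely in level per length. Divided by the bases of their exons, HSP90AA1, the stress-inducible cytosolic HSP90, stood highest at 485 ± 24.4 CPM per kilobase (SD, n = 3). HSPA8, the constitutive cytosolic HSP70, followed at 371 ± 17.8. The matrix chaperonin HSPD1 (HSP60) had 170.2 ± 5.97 CPM per kilobase, the small heat shock protein HSPB1 had 162 ± 6.14, and HSPE1 (HSP10), the lid of the HSP60 chamber, had 125 ± 4.82. The inducible HSP70 genes HSPA1A and HSPA1B stood at 121 ± 1.76 and 88.0 ± 5.29 CPM per kilobase. BAG3, which links HSP70 to autophagy, had 39.2 ± 0.667, the HSP110 gene HSPH1 had 26.0 ± 1.26, and the HSP40 gene DNAJB1 had 20.3 ± 0.790. The order depends on the bases counted, the union of a gene's exons, which was 8188 for DNAJB1 and 2737 for BAG3. In CPM alone DNAJB1, at 166, stood above BAG3, at 107.

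HSPA1A (ENSG00000204389.9) and HSPA1B (ENSG00000204388.7) lie side by side on chromosome 6, at 31815543 to 31817946 and at 31827738 to 31830254 of GRCh38. They are near-identical copies, so reads that match both were divided between them by the authors' counting tool, and the split is uncertain. Their summed counts were therefore fitted as well. HSPD1 (ENSG00000144381.17) and HSPE1 (ENSG00000115541.11) share a stretch of chromosome 2 on opposite strands: HSPD1 spans 197486584 to 197516737 and HSPE1 spans 197500140 to 197503449. The annotated starts of HSPE1 and of the upstream HSPD1 promoter in RefSeq are 105 bases apart, and their promoter windows share 204 bases.

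Since the members moved together at the highest dose, their promoters were searched for the letters of heat shock elements. The windows are from RefSeq on GRCh38.p14, from 250 bases before to 50 after each start, and 14 windows matched the 10 members among 35116 windows in all. A pair of units was searched as GAANNTTC or TTCNNGAA, a run of 3 as GAANNTTCNNGAA or TTCNNGAANNTTC, and a run of 4 as GAANNTTCNNGAANNTTC or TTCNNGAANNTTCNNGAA. Each pair reads the same on both strands, longer runs were searched on both strands, and the runs contain the pairs. A pair was present in 13.5% of all windows and in 8 of the 14 member windows, which belong to 7 members. A run of 3 was present in 0.49% of all windows and in those of 3 members, HSPA8, HSP90AA1 and HSPD1. A run of 4 was present in 0.0342% of all windows and, among members, in that of HSPD1. The windows of HSPH1, BAG3 and HSPE1 held no pair. For HSPE1 this depends on the start used: the run of 4 assigned to HSPD1 lies outside the HSPE1 window, chr2:197500129-197500428, but shortly before the gene start of HSPE1 given above, 197500140. A match describes letters in a window, not a bound site. Units that depart from these letters and elements outside the windows were not searched, so a window without a match may still belong to a gene with an element.

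The matched stretches are shown for the members with a pair. Capitals mark the matched units, and each line is written 5′ to 3′ on the gene's own strand. HSPA1A is at chr6:31815412-31815469 (plus strand) and HSPA1B at chr6:31827608-31827665 (plus). The HSPA8 stretches are at chr11:123062329-123062386 and chr11:123062154-123062216 (minus). HSP90AA1 is at chr14:102087080-102087157 (minus), DNAJB1 at chr19:14518412-14518499 and, in the window of another start, at chr19:14517904-14517961 (minus), HSPB1 at chr7:76302466-76302523 (plus) and HSPD1 at chr2:197500043-197500090 (minus). The HSPA1A and HSPA1B windows were the same at 277 of 299 bases compared, 92.6%, and their matched letters are the same.
HSPA1A: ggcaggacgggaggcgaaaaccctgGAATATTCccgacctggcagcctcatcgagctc
HSPA1B: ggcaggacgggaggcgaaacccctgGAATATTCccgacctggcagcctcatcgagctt
HSPA8 upstream: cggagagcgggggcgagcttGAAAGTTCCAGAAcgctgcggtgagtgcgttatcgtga
HSPA8 near the start: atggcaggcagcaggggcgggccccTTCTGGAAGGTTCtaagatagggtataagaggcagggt
HSP90AA1: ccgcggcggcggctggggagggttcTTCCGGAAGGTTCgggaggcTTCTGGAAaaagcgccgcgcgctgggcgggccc
DNAJB1: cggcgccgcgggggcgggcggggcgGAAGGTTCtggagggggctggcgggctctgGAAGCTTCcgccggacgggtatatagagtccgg
DNAJB1 other start: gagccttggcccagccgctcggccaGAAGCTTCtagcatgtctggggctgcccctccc
HSPB1: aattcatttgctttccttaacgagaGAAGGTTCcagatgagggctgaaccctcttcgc
HSPD1: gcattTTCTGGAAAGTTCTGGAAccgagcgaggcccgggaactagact

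The question for each compound was which of the members changed against vehicle in the same cell type. The 8 compound-dose pairs gave 16 such comparisons, and those within a cell type share its 3 vehicle libraries. At 5 µM the members went in opposite directions: CP2 and CP18 raised most of them and CP14 lowered most of them. The map of fold changes shows this split, with all 3 compounds close to 0 for most members at their lowest dose in EV cells. Across the 16 comparisons the median log2 fold change over all genes tested lay between -0.011 and 0.011.

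**Figure D1:**
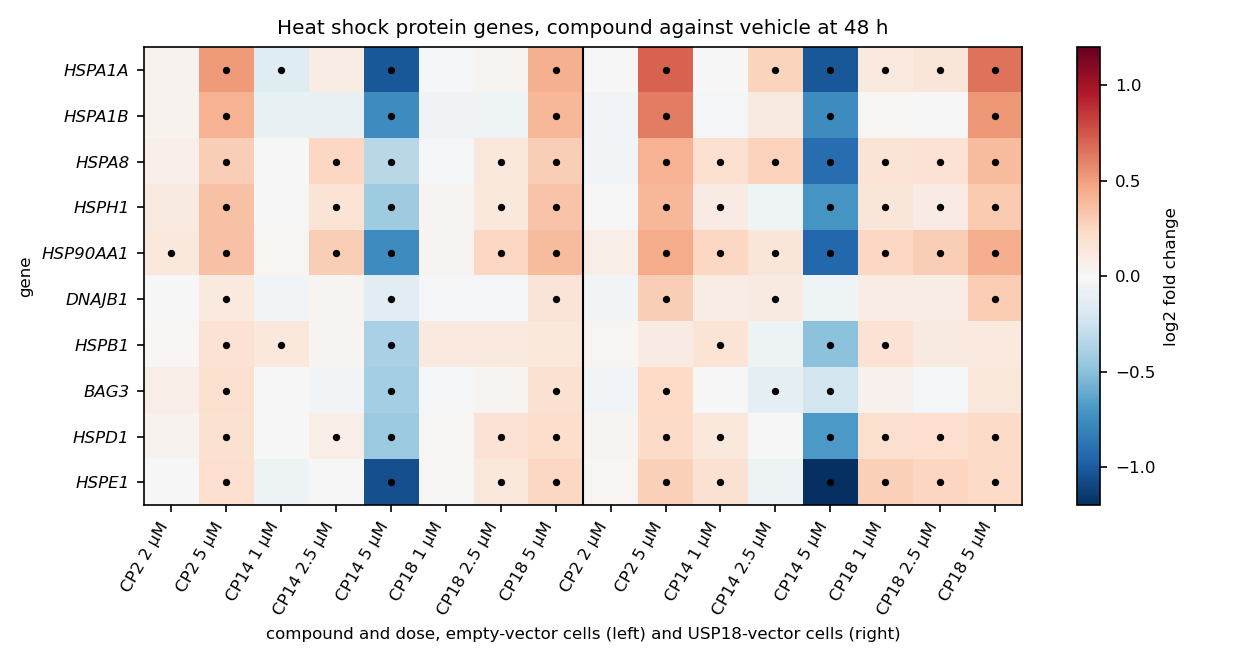
Log2 fold change of each member (vertical axis) in the 16 comparisons of compound with vehicle (horizontal axis), in EV cells on the left and USP18 cells on the right. Red is higher and blue lower than vehicle, dots mark an adjusted p under 0.05, and the strongest blue is HSPE1 with CP14 at 5 µM in USP18 cells, -1.199.

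CP2 at 5 µM raised all 10 members in EV cells, where 5.31% of the 15760 genes tested rose, and 9 of 10 in USP18 cells, where 8.65% rose. The median log2 fold change of the members was 0.25 in EV cells and 0.34 in USP18 cells. The inducible HSP70 genes rose most. HSPA1A was at 296, 287 and 291 CPM in EV vehicle libraries and at 386, 422 and 419.7 CPM with CP2, a log2 fold change of 0.51 (SE 0.0361, adjusted p = 2.28e-07). In USP18 cells it went from 236, 231 and 232 CPM to 380.1, 391 and 376 CPM, a log2 fold change of 0.70 (SE 0.0364, adjusted p = 2.20e-10). Every treated library stood above every vehicle library in both cell types. HSPA1B rose by 0.42 in EV cells (adjusted p = 5.13e-06) and by 0.61 in USP18 cells (adjusted p = 1.41e-08). The summed HSPA1A and HSPA1B counts rose by 0.47 and 0.66, so the direction did not rest on how their shared reads were split.

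The constitutive HSP70 gene and the HSP90 and HSP110 genes followed with CP2 at 5 µM. HSPA8 was at 1788, 1722 and 1893 CPM in EV vehicle libraries and at 2153, 2251 and 2156 CPM with CP2, a log2 fold change of 0.30 (SE 0.0352, adjusted p = 1.94e-05). In USP18 cells HSPA8 rose by 0.41 (SE 0.0352, adjusted p = 1.42e-07). HSP90AA1 was at 2425, 2378 and 2613 CPM with vehicle and at 3097, 3217 and 3043 CPM with CP2 in EV cells, a log2 fold change of 0.36 (SE 0.0348, adjusted p = 2.94e-06). Its treated libraries stood apart from the vehicle libraries in USP18 cells too, where it rose by 0.45 (SE 0.0348, adjusted p = 4.50e-08). HSPH1, which resets HSP70 by nucleotide exchange, rose by 0.36 in EV cells (adjusted p = 9.41e-06) and by 0.40 in USP18 cells (adjusted p = 9.29e-07).

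DNAJB1 and BAG3 also rose with CP2 at 5 µM. DNAJB1, an HSP40 protein that delivers clients to HSP70, was at 156, 157 and 158 CPM in USP18 vehicle libraries and at 199, 189.7 and 193 CPM with CP2, a log2 fold change of 0.29 (SE 0.0321, adjusted p = 3.59e-06). In EV cells it rose by 0.11 (adjusted p = 0.028), with the lowest treated library at 175 CPM and the highest vehicle library at 174 CPM. That call was lost without EV vehicle replicate 1 (0.084, adjusted p = 0.192) or 2 (0.092, adjusted p = 0.157), and without CP2 EV replicate 1 (adjusted p = 0.0977) or 2 (adjusted p = 0.0886). It was also lost without a filter (adjusted p = 0.0545) and with only the groups compared (adjusted p = 0.11). The fit of all 54 libraries lost it as well (adjusted p = 0.0877). The log2 fold change of DNAJB1 in these fits was 0.108 to 0.115. BAG3 rose by 0.19 in EV cells (adjusted p = 0.00271) and by 0.24 in USP18 cells (adjusted p = 1.99e-04).

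HSPB1, the small heat shock protein, was the weakest of the members with CP2 at 5 µM in USP18 cells, at 0.10 (adjusted p = 0.165), although its 3 treated libraries lay above the vehicle libraries and it passed in a fit of only the groups compared (adjusted p = 0.00303) and without a filter (adjusted p = 0.0454). In EV cells it rose by 0.17 (adjusted p = 0.0201), from 264, 253 and 273 CPM to 274, 285 and 319.9 CPM. That call rested on single libraries: the adjusted p was 0.0728 without CP2 EV replicate 3, with a log2 fold change of 0.089, and 0.0699 and 0.129 without EV vehicle replicates 1 and 2. It was also lost in the fit of only the groups compared (0.18, adjusted p = 0.0871). The matrix pair rose together. HSPD1 rose by 0.18 in EV cells (adjusted p = 0.00107) and by 0.23 in USP18 cells (adjusted p = 5.55e-05), and HSPE1 by 0.20 (adjusted p = 8.44e-04) and 0.28 (adjusted p = 1.17e-05).

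CP2 at 2 µM left little trace in the members. By edgeR HSP90AA1 alone passed in EV cells, at a log2 fold change of 0.13 (adjusted p = 0.00935), where 0.803% of 15811 genes rose, and without EV vehicle replicate 1 it no longer passed (0.12, adjusted p = 0.0561). HSPH1, at 0.11 (adjusted p = 0.0577), passed by DESeq2 (adjusted p = 0.0206). In USP18 cells 0 of 10 members passed by edgeR and 0 by DESeq2, with 1 at an unadjusted p under 0.05 and the smallest adjusted p at 0.236, where 1.13% of genes passed in either direction.

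CP18 at 5 µM raised 9 of 10 members in EV cells, where 4.09% of the 15662 genes tested rose, and 8 of 10 in USP18 cells, where 4.32% rose. Their median log2 fold change was 0.27 and 0.31. HSPA1A went from 296, 287 and 291 CPM to 377, 393 and 397 CPM in EV cells, a log2 fold change of 0.43 (SE 0.0436, adjusted p = 1.80e-05). It reached 392, 362 and 347 CPM in USP18 cells, a log2 fold change of 0.65 (SE 0.0440, adjusted p = 1.60e-08). All treated libraries lay above all vehicle libraries of their cell type. HSPA1B rose by 0.40 in EV cells (adjusted p = 7.24e-05) and by 0.52 in USP18 cells (adjusted p = 5.31e-07).

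HSP90AA1 reached 3255, 3427 and 2875 CPM with CP18 at 5 µM in EV cells, a log2 fold change of 0.38 (SE 0.0495, adjusted p = 1.53e-04). The 3 libraries of that group were the most scattered of any group for this gene, yet the lowest stood above the highest vehicle library, 2613 CPM. HSP90AA1 rose by 0.43 in USP18 cells (adjusted p = 7.85e-06). HSPA8 rose by 0.30 (adjusted p = 0.00132) and 0.38 (adjusted p = 3.87e-05), and HSPH1 by 0.34 (adjusted p = 2.32e-04) and 0.32 (adjusted p = 1.38e-04), in EV and USP18 cells. HSPD1 rose by 0.21 (adjusted p = 0.00225) and 0.23 (adjusted p = 4.17e-04), and HSPE1 by 0.24 (adjusted p = 0.00345) and 0.23 (adjusted p = 0.00329).

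The remaining members were DNAJB1, BAG3 and HSPB1. With CP18 at 5 µM DNAJB1 rose by 0.31 in USP18 cells (SE 0.0446, adjusted p = 1.32e-04). In EV cells DNAJB1 had a log2 fold change of 0.16 (adjusted p = 0.0337), which missed the threshold without EV vehicle replicate 1 (adjusted p = 0.159) or 2 (adjusted p = 0.133) or CP18 EV replicate 2 (0.11, adjusted p = 0.137). BAG3 in EV cells had 0.18 (adjusted p = 0.0341), and this call was lost without EV vehicle replicate 1 (adjusted p = 0.0883), 2 (adjusted p = 0.107) or 3 (adjusted p = 0.106), and without CP18 EV replicate 2 (0.14, adjusted p = 0.134). In USP18 cells BAG3 was at 0.13 (adjusted p = 0.1). HSPB1 passed in neither cell type, with 0.13 (adjusted p = 0.171) and 0.12 (adjusted p = 0.193). In a fit of only the groups compared, BAG3 (adjusted p = 0.0133) and HSPB1 (adjusted p = 0.00778) passed in USP18 cells. In EV cells that fit lost DNAJB1 (0.17, adjusted p = 0.122) and BAG3 (0.19, adjusted p = 0.0954).

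With CP18 at 1 µM the members that passed were all in USP18 cells: 7 of 10 rose there, where 7.74% of 15771 genes rose. In EV cells 0 of 10 passed by edgeR and 0 by DESeq2, with 1 at an unadjusted p under 0.05, where 0.368% of genes passed in either direction. The largest of the 7 was HSPE1, at 0.29 (adjusted p = 1.83e-05), followed by HSP90AA1 at 0.25 (adjusted p = 5.31e-05), HSPD1 at 0.19, HSPA8 and HSPB1 at 0.17, HSPH1 at 0.14 and HSPA1A at 0.12 (adjusted p = 0.0468). The HSPA1A call was lost without CP18 USP18 replicate 3 (0.062, adjusted p = 0.28) or 2 (adjusted p = 0.0623) and without any USP18 vehicle library (adjusted p from 0.121 to 0.169). Counted together with HSPA1B, the log2 fold change was 0.076 (adjusted p = 0.161). HSPH1 missed without USP18 vehicle replicate 1 (adjusted p = 0.0668) or 2 (adjusted p = 0.0637).

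At 2.5 µM of CP18, 5 members rose in EV cells, where 2.34% of 15747 genes rose, and 6 in USP18 cells, where 7.19% rose. In EV cells these were HSP90AA1 at 0.25, HSPD1 at 0.17, HSPE1 at 0.14, HSPA8 at 0.13 and HSPH1 at 0.13. Without single libraries HSPH1 (adjusted p = 0.0209) reached 0.0973 or 0.131 (EV vehicle replicate 1 or 2) and 0.0686 or 0.0997 (CP18 EV replicate 1 or 3). Likewise HSPE1 (adjusted p = 0.0113) reached 0.0924 or 0.0538 (EV vehicle replicate 1 or 2) and 0.0848 (CP18 EV replicate 3). In USP18 cells HSP90AA1 rose by 0.29, HSPE1 by 0.26, HSPD1 by 0.20, HSPA8 by 0.18, HSPA1A by 0.14 and HSPH1 by 0.10. The summed HSPA1A and HSPA1B counts rose by 0.078 (adjusted p = 0.0464). The HSPH1 call (adjusted p = 0.0414) was lost without USP18 vehicle replicate 1 (adjusted p = 0.149) or 2 (adjusted p = 0.148) and without CP18 USP18 replicate 1 (adjusted p = 0.0934) or 3 (adjusted p = 0.133).

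**Figure D2:**
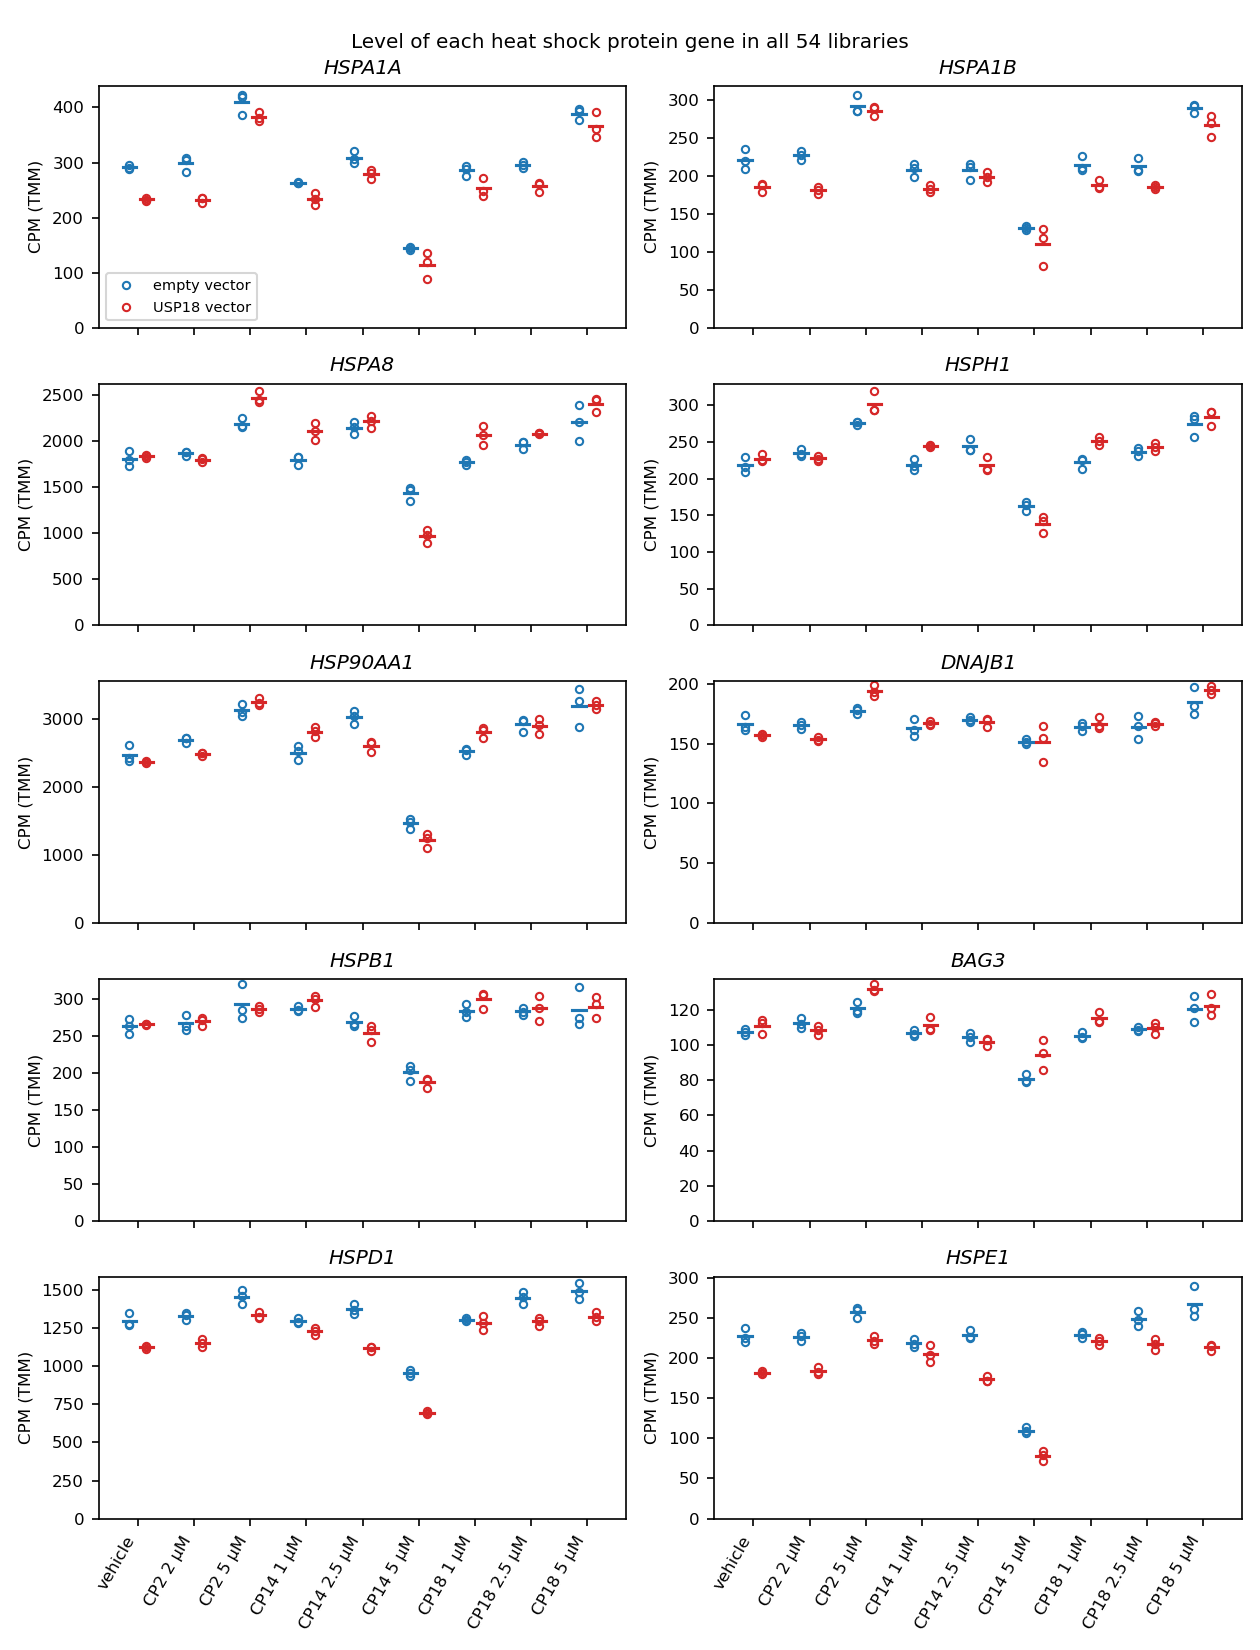
Level of each member in CPM (vertical axes, from 0) in all 54 libraries, by compound and dose (horizontal axes). Open circles are libraries, bars are means of 3, blue is EV and red is USP18 cells, and CP14 at 5 µM has the 2 lowest groups for each member, with HSPA1A at 144 CPM in EV cells and 114 CPM in USP18 cells. For DNAJB1 this does not hold when libraries are scaled by totals alone.

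CP14 at 5 µM lowered all 10 members in EV cells, where 32.1% of the 15947 genes tested fell, and 9 of 10 in USP18 cells, where 34.3% fell. Their median log2 fold change was -0.44 in EV cells and -0.73 in USP18 cells. With so many genes moving, the sizes say more than the counts. A fall beyond a log2 fold change of -1 was seen for 2 members in each cell type, HSPA1A and HSPE1, against 7.53% of all genes in EV cells and 8.74% in USP18 cells. For HSPA1A this lay close to the limit. The log2 fold change was -0.998 in EV cells without CP14 EV replicate 2 and -0.849 in USP18 cells without CP14 USP18 replicate 1. It was -0.97 in EV and -0.96 in USP18 cells when scaled by totals alone, and -0.889 in EV and -0.890 in USP18 cells when it was counted together with HSPA1B.

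HSPA1A was at 147, 141 and 145 CPM with CP14 at 5 µM in EV cells, against 296, 287 and 291 CPM with vehicle, a log2 fold change of -1.02 (SE 0.0787, adjusted p = 2.91e-10). In USP18 cells it was at 88.8, 119 and 135 CPM, against 236, 231 and 232 CPM, a log2 fold change of -1.02 (SE 0.0804, adjusted p = 2.90e-10). The USP18 group was the more scattered, with replicate 1 the lowest, and without that library the log2 fold change was -0.85. HSPA1B fell by 0.76 on the log2 scale in EV cells and by 0.75 in USP18 cells, and the summed counts of both genes fell by 0.89 in each.

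HSPE1 and HSPD1, which build the same folding chamber, fell by different amounts. HSPE1 was at 219.8, 225 and 237 CPM with vehicle and at 114, 109 and 106 CPM with CP14 in EV cells, a log2 fold change of -1.05 (SE 0.0444, adjusted p = 1.03e-14). In USP18 cells it went from 181, 179.7 and 183 CPM to 72.1, 78.9 and 84.6 CPM, a log2 fold change of -1.199 (SE 0.0460, adjusted p = 1.44e-15). No treated library reached the range of the vehicle libraries. HSPD1 went from 1271, 1274 and 1351 CPM to 976, 933 and 956 CPM in EV cells, a log2 fold change of -0.44 (SE 0.0315, adjusted p = 6.66e-11). In USP18 cells HSPD1 went from 1114, 1134 and 1126 CPM to 694, 684 and 707 CPM, a log2 fold change of -0.69 (SE 0.0317, adjusted p = 3.45e-14). The difference between these genes was not itself tested.

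The abundant cytosolic chaperones fell as well with CP14 at 5 µM. HSP90AA1 stood at 1523, 1384 and 1486 CPM in EV cells, a log2 fold change of -0.76 (SE 0.0483, adjusted p = 1.18e-11), and at 1103, 1250.3 and 1309 CPM in USP18 cells, a log2 fold change of -0.94 (SE 0.0485, adjusted p = 2.29e-13). HSPA8 went to 1490.3, 1344 and 1465 CPM in EV cells, a log2 fold change of -0.33 (SE 0.0465, adjusted p = 2.44e-06). In USP18 cells HSPA8 went from 1818, 1839.9 and 1847 CPM to 890.4, 980.2 and 1039 CPM, a log2 fold change of -0.91 (SE 0.0469, adjusted p = 2.24e-13). Vehicle and treated libraries did not overlap for either gene in either cell type. HSPH1 fell by 0.43 in EV cells (adjusted p = 6.81e-08) and by 0.71 in USP18 cells (adjusted p = 1.73e-11), and HSPB1 by 0.39 (adjusted p = 2.32e-08) and 0.50 (adjusted p = 3.94e-10).

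DNAJB1 and BAG3 were the members least lowered by CP14 at 5 µM in USP18 cells. BAG3 went from 109, 107 and 105 CPM to 79.2, 79.5 and 83.7 CPM in EV cells, a log2 fold change of -0.41 (SE 0.0498, adjusted p = 3.26e-07), and fell by 0.22 in USP18 cells (SE 0.0488, adjusted p = 3.67e-04). The USP18 value for BAG3 ran from -0.266 to -0.139 over the refits without a library, the smallest without CP14 USP18 replicate 1. DNAJB1 was at 134, 154 and 165 CPM in USP18 cells against 156, 157 and 158 CPM with vehicle, a log2 fold change of -0.047 (SE 0.0497, adjusted p = 0.411). Its treated libraries lay on both sides of the vehicle libraries. In EV cells it had a log2 fold change of -0.14 (adjusted p = 0.0221), which missed the threshold without EV vehicle replicate 3 (-0.10, adjusted p = 0.113) or CP14 EV replicate 1 (adjusted p = 0.0547) or 2 (adjusted p = 0.065), and when libraries were scaled by their totals alone (-0.089, adjusted p = 0.128).

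Within USP18 cells at this dose, replicate 1 was the lowest library for 9 of the 10 members, all but HSPD1. Its total count, 19550115, lay within the range of all libraries. The mean disagreement per gene between pairs of libraries, as a chi-square on counts, was 4.82 and 4.85 for its pairs and 2.33 for the other pair of its group. Over the 54 pairs within groups it ran from 1.80 to 11.1. The highest values were those of CP18 at 5 µM in EV cells, 8.82 and 11.1 for the pairs with replicate 3, and of CP2 at 5 µM in EV cells, 7.19 to 8.91.

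At lower doses CP14 acted on fewer members and mostly in the other direction. At 1 µM in EV cells HSPB1 had a log2 fold change of 0.13 (adjusted p = 0.0389), where 0.405% of 15797 genes rose, and HSPA1A -0.14 (adjusted p = 0.0208), where 0.456% fell. HSPA1A was at 263, 265 and 263 CPM, below all 3 vehicle libraries. Both calls were lost without EV vehicle replicate 1 (adjusted p = 0.117 for HSPA1A and 0.116 for HSPB1) or without any treated library (adjusted p from 0.0719 to 0.0854 for HSPA1A and from 0.0918 to 0.14 for HSPB1), and HSPB1 also without EV vehicle replicate 2 (adjusted p = 0.151). In USP18 cells 6 of 10 members rose at 1 µM, where 7.4% of genes rose. They were HSP90AA1 at 0.25 (adjusted p = 2.70e-05), HSPA8 at 0.20 (adjusted p = 3.37e-04), HSPE1 at 0.18, HSPB1 at 0.16, HSPD1 at 0.13 and HSPH1 at 0.10. The HSPH1 call (adjusted p = 0.0327) was lost without USP18 vehicle replicate 1 or 2 (adjusted p = 0.118 and 0.12) and without any treated library (adjusted p from 0.0685 to 0.0881).

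CP14 at 2.5 µM raised 4 members in EV cells, where 7.06% of 15827 genes rose: HSP90AA1 by 0.29 (adjusted p = 1.55e-05), HSPA8 by 0.25 (adjusted p = 5.39e-05), HSPH1 by 0.16 (adjusted p = 0.00737) and HSPD1 by 0.08 (adjusted p = 0.0491). HSPD1 overlapped with its vehicle libraries, and its call was lost without EV vehicle replicate 1 or 2 (adjusted p = 0.187 and 0.161) or without any treated library (adjusted p from 0.0575 to 0.189). In USP18 cells 4 rose, where 16.3% of genes rose, and BAG3 fell, where 16.4% fell. HSPA1A and HSPA8 each rose by 0.27 (adjusted p = 3.24e-06 for each), HSP90AA1 by 0.15 (adjusted p = 0.00192) and DNAJB1 by 0.11 (adjusted p = 0.0143). The log2 fold change of BAG3 was -0.12 (adjusted p = 0.0143). DNAJB1 missed without USP18 vehicle replicate 1 (adjusted p = 0.0577) or CP14 USP18 replicate 2 (adjusted p = 0.0779), and BAG3 without USP18 vehicle replicate 1 (adjusted p = 0.0539) or 3 (adjusted p = 0.0781).

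**Figure D3:**
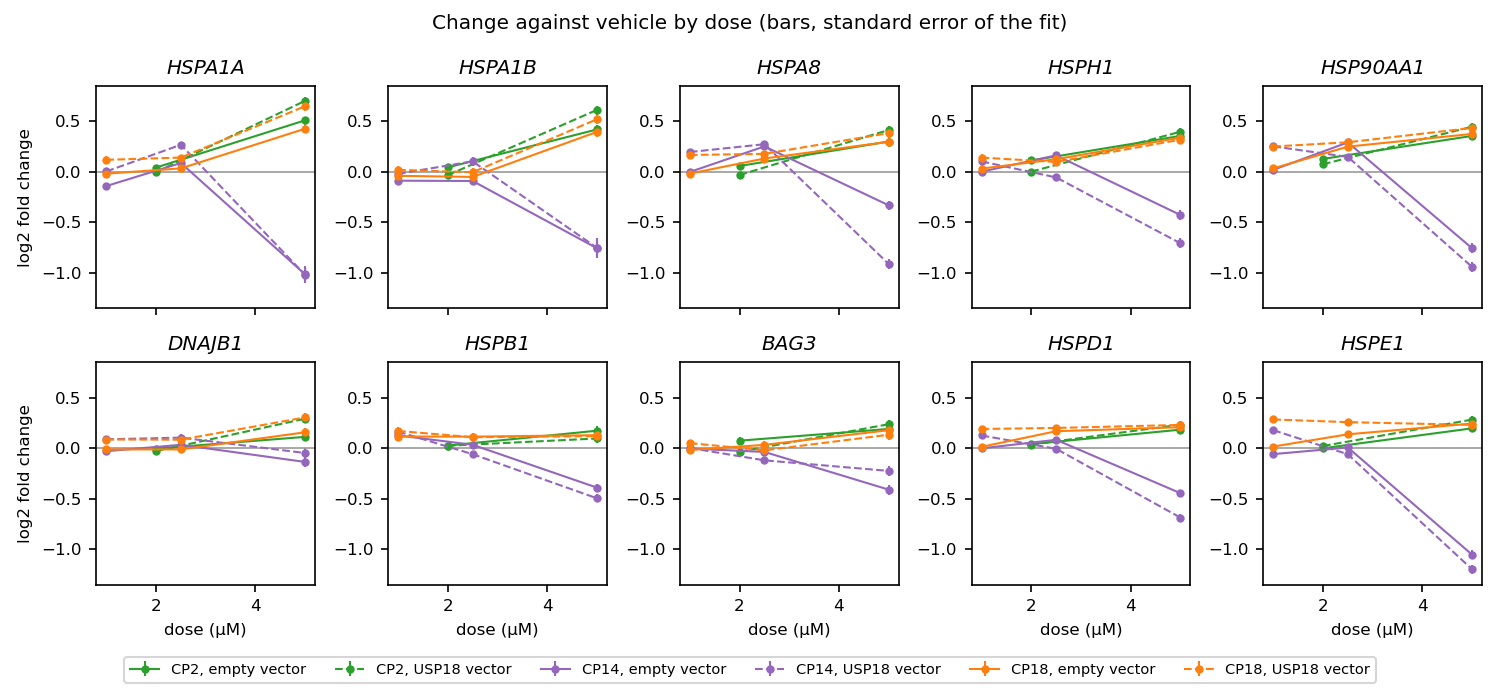
Log2 fold change against vehicle (vertical axes) by dose in µM (horizontal axes) for each member, with bars for the standard error. Solid lines are EV and dashed lines USP18 cells, green is CP2, purple CP14 and orange CP18, and the CP14 lines end below 0 at 5 µM for each member while those of CP2 and CP18 end above it.

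The step from 2.5 to 5 µM was tested directly for CP14 and CP18. For CP14 all 10 members fell over this step in EV cells, where 29% of the 15891 genes tested fell, and 9 fell in USP18 cells, where 30.7% fell. HSPA1A changed by -1.10 in EV and -1.27 in USP18 cells, HSPE1 by -1.05 and -1.12, HSP90AA1 by -1.04 and -1.07, and HSPA8 by -0.58 and -1.17. DNAJB1 changed by -0.16 (adjusted p = 0.0123) and -0.14 (adjusted p = 0.0311). Its USP18 call was lost without CP14 5 µM replicate 1 (-0.058, adjusted p = 0.216) or CP14 2.5 µM replicate 1 (adjusted p = 0.0582) or 2 (adjusted p = 0.0919), and with scaling by totals alone (adjusted p = 0.102). BAG3 did not pass in USP18 cells, at -0.088 (adjusted p = 0.146).

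For CP18 the same step raised the inducible HSP70 genes. HSPA1A rose by 0.39 (SE 0.0456, adjusted p = 1.38e-04) and HSPA1B by 0.44 (SE 0.0447, adjusted p = 1.69e-05) in EV cells, where 0.18% of 15597 genes rose. In USP18 cells HSPA1A rose by 0.52, HSPA1B by 0.53 (adjusted p = 6.54e-06 for each) and HSPH1 by 0.23 (adjusted p = 0.025), where 0.128% of genes rose. HSPH1 missed the threshold without any of the 6 libraries of that comparison (adjusted p from 0.0518 to 0.202). The other members did not pass by edgeR, although 8 in EV and 7 in USP18 cells, HSPA1A and HSPA1B among them, had an unadjusted p under 0.05. By DESeq2 HSPH1 passed in EV cells (adjusted p = 0.0037), and HSPA8 (adjusted p = 0.0019) and DNAJB1 (adjusted p = 0.00195) in USP18 cells.

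The compounds were compared with each other at matched doses, in 10 comparisons. Over these, the p-values of all genes were also adjusted jointly. The 5 µM comparisons with CP14, where most passing genes lie, make that joint threshold looser for comparisons with few passing genes. Compounds known by code carry no structural information here, so the comparisons are of responses alone. The plot of differences between compounds shows CP14 set apart from CP2 and CP18 at 5 µM.

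**Figure D4:**
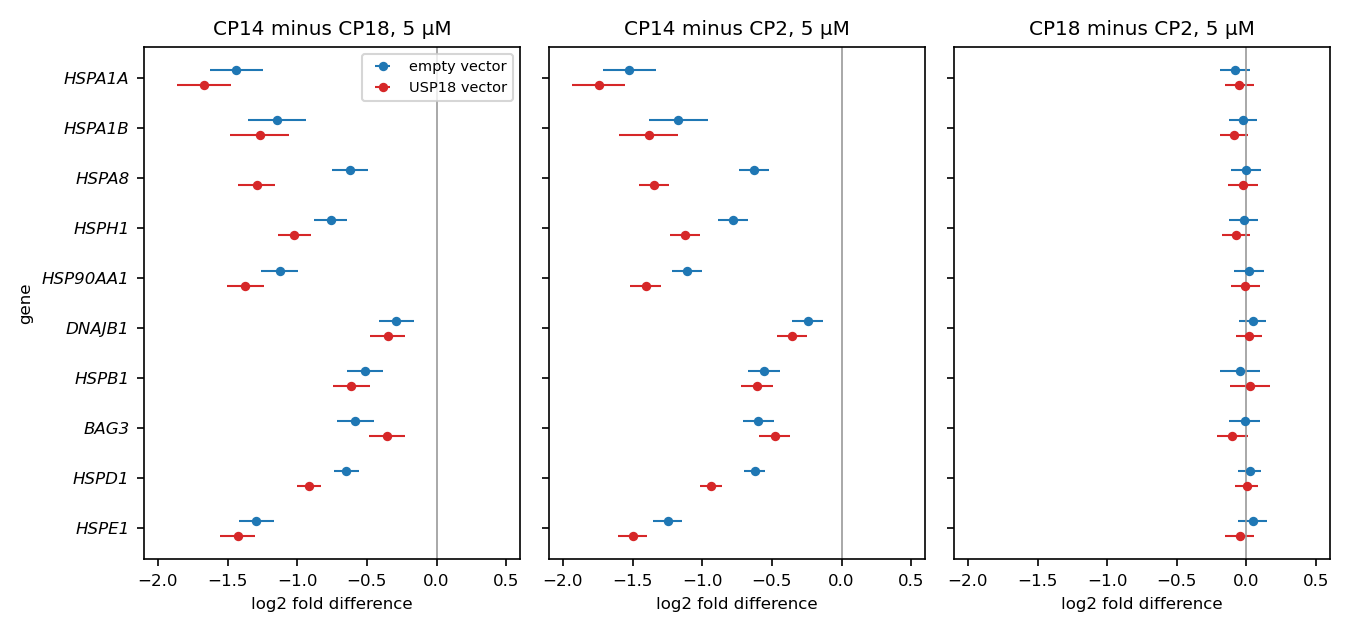
Difference between compounds at 5 µM on the log2 scale (horizontal axes) for each member (vertical axis), with 95% intervals, in EV cells (blue) and USP18 cells (red). CP14 is below CP18 and CP2 for each member, and each interval of CP18 minus CP2 includes 0.

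CP14 at 5 µM was below CP18 at 5 µM for all 10 members in EV cells, where 28.8% of the 15860 genes tested were lower, and for all 10 in USP18 cells, where 31.3% were. HSPA1A differed by -1.44 in EV cells (SE 0.0916, adjusted p = 5.44e-11, over the 10 comparisons 1.01e-10) and by -1.67 in USP18 cells (SE 0.0925, adjusted p = 4.13e-12, over the 10 comparisons 1.17e-11). HSPE1 differed by -1.29 and -1.43, HSP90AA1 by -1.13 and -1.37, HSPA8 by -0.62 and -1.29, and HSPD1 by -0.65 and -0.91. The smallest differences were those of DNAJB1, -0.29 and -0.35, and in USP18 cells BAG3, -0.35. No library with CP14 reached the range of the libraries with CP18.

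CP14 was likewise below CP2 at 5 µM for all 10 members in EV cells, where 29.9% of 15882 genes were lower, and for all 10 in USP18 cells, where 33.9% were. HSPA1A differed by -1.52 (SE 0.0894, adjusted p = 3.57e-11) and -1.74 (SE 0.0905, adjusted p = 3.70e-12), HSPE1 by -1.25 and -1.50, HSPA8 by -0.63 and -1.34, and DNAJB1 by -0.24 and -0.36. These comparisons share the CP14 libraries with those against CP18.

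CP18 and CP2 at 5 µM were not told apart. In EV cells 0 of 10 members passed by edgeR and by DESeq2, with 0 at an unadjusted p under 0.05, where 0.0257% of 15591 genes passed. In USP18 cells the counts were the same, where 0.00641% of genes passed. HSPA1A differed by -0.09 in EV cells (95% interval -0.19 to 0.02, adjusted p = 0.858) and by -0.05 in USP18 cells (-0.16 to 0.06). BAG3 in USP18 cells had the largest difference, -0.10 (-0.21 to 0.0086, adjusted p = 0.982). A p-value that misses the threshold does not show that the compounds act alike, and these intervals give the range of differences the libraries allow.

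At 1 µM CP14 and CP18 gave 0 of 10 members past the threshold in EV cells by edgeR and by DESeq2, with 2 at an unadjusted p under 0.05, where 0.0191% of 15720 genes passed. In USP18 cells 0 of 10 passed by both tools, with 3 at an unadjusted p under 0.05, and again 0.0191% of genes. When p was adjusted over all 10 pairs jointly, HSPA1A in EV cells (-0.12, edgeR adjusted p = 0.0361) and HSPE1 in USP18 cells (-0.10, edgeR adjusted p = 0.0293) passed. That joint threshold is the looser one at this dose. Over genes alone the smallest edgeR adjusted p of a member was 0.585 in EV and 0.352 in USP18 cells. The share of all genes that passed jointly was not counted.

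At 2.5 µM the members split between CP14 and CP18. In EV cells HSPA8 was higher with CP14, by 0.12 (SE 0.0276, adjusted p = 0.0336), where 0.828% of 15706 genes were higher. With p adjusted over all 10 pairs jointly 3 members passed: HSPA8 (edgeR adjusted p = 0.00234), HSPD1 (-0.09, edgeR adjusted p = 0.0255) and HSPE1 (-0.13, edgeR adjusted p = 0.00597). The joint threshold is again the looser one, and the share of all genes that passed it was not counted. Over genes alone HSPE1 had an edgeR adjusted p of 0.0566. The HSPA8 call was lost, when adjusted over genes alone, without CP14 EV replicate 1 or 3 (adjusted p = 0.121 and 0.161) or any of the CP18 EV libraries (adjusted p from 0.0963 to 0.149). In USP18 cells 3 members were higher with CP14, where 14.3% of genes were, and 6 were lower, where 13.9% were. HSPA1A (0.13, adjusted p = 0.00909), HSPA1B (0.11, adjusted p = 0.0467) and HSPA8 (0.10, adjusted p = 0.0118) were higher. HSPE1 (-0.31, adjusted p = 3.28e-06), HSPD1 (-0.20, adjusted p = 2.98e-05), HSPB1 (-0.17, adjusted p = 0.00732), HSPH1 (-0.15, adjusted p = 0.00469), HSP90AA1 (-0.14, adjusted p = 0.00343) and BAG3 (-0.10, adjusted p = 0.0415) were lower. DNAJB1 was at 0.02 (95% interval -0.05 to 0.10).

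Single libraries decided some of these calls at 2.5 µM in USP18 cells. HSPA1B missed without CP14 replicate 1 (adjusted p = 0.0727) or 2 (adjusted p = 0.184) or any CP18 library (adjusted p from 0.0718 to 0.117), and BAG3 without any CP14 library (adjusted p from 0.0632 to 0.118) or CP18 replicate 1 (adjusted p = 0.164) or 3 (adjusted p = 0.0865). The BAG3 call was also lost with scaling by totals (adjusted p = 0.0682), without a filter (adjusted p = 0.103), by DESeq2 (adjusted p = 0.0768) and in fits of only the groups compared (adjusted p = 0.073) or of all 54 libraries (adjusted p = 0.0791). HSPA1A (adjusted p = 0.0527) and HSPB1 (-0.12, adjusted p = 0.0509) missed without CP18 replicate 2. HSPA1B also missed by DESeq2 (adjusted p = 0.064) and with only the groups compared (adjusted p = 0.0624). With only the groups compared HSPA8 missed too (0.091, adjusted p = 0.0502). The fit of all 54 libraries lost HSPA1B (adjusted p = 0.276), HSPA1A (adjusted p = 0.138) and HSPA8 (adjusted p = 0.104).

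The vehicle libraries show how the USP18 vector population differed before any compound. In USP18 cells 6 of 10 members were lower than in EV cells, where 28.7% of the 15252 genes tested were lower. The markers differed between these groups too, with an epithelial sum of 13114 CPM in EV and 8842 CPM in USP18 cells and COL1A1 at 12.4 and 4.71 CPM. HSPE1 differed by -0.34 (SE 0.0278, adjusted p = 9.86e-09), HSPA1A by -0.33 (SE 0.0246, adjusted p = 2.35e-09), HSPA1B by -0.27 (SE 0.0347, adjusted p = 3.35e-06) and HSPD1 by -0.22 (SE 0.0258, adjusted p = 1.10e-06). The 3 HSPA1A libraries of USP18 cells, at 231 to 236 CPM, all lay below those of EV cells, at 287 to 296 CPM. DNAJB1 (-0.10, adjusted p = 0.00902) and HSP90AA1 (-0.08, adjusted p = 0.0298) passed by less. DNAJB1 missed without EV vehicle replicate 3 (adjusted p = 0.0557) and with scaling by totals (adjusted p = 0.0571). HSP90AA1 missed without EV vehicle replicate 3 (-0.042, adjusted p = 0.104), without any USP18 vehicle library (adjusted p from 0.0778 to 0.115) and with scaling by totals (-0.050, adjusted p = 0.16).

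The difference in response between the cell types was tested for each compound and dose. CP2 gave 0 of 10 members at 2 µM by edgeR and DESeq2, with 3 at an unadjusted p under 0.05, where 0.0569% of genes passed. At 5 µM CP2 gave 0 of 10 by edgeR and 3 by DESeq2, with 4 at an unadjusted p under 0.05, where 0.92% passed. The HSPA1A response to CP2 at 5 µM was 0.19 larger in USP18 cells (95% interval 0.09 to 0.30, adjusted p = 0.0902) and that of DNAJB1 0.18 larger (0.08 to 0.28, adjusted p = 0.0733). By DESeq2 HSPA1A (adjusted p = 0.0102), DNAJB1 (adjusted p = 0.0222) and HSPA1B (adjusted p = 0.0494) passed. By edgeR the same 3 passed without CP2 EV replicate 3 (adjusted p from 0.0121 to 0.0228), so whether these responses differ depends on the fit.

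CP18 gave 4 members with a different response at 1 µM, where 7.19% of genes passed. At 2.5 µM CP18 gave 0 by edgeR and 0 by DESeq2, with 2 at an unadjusted p under 0.05, where 0.197% passed. At 5 µM it gave 0 by edgeR and 1 by DESeq2 (HSPA1A, adjusted p = 0.0262), with 2 at an unadjusted p under 0.05, where 0.268% passed. At 1 µM the response in USP18 cells was higher than that in EV cells by 0.27 for HSPE1 (adjusted p = 0.00218), 0.22 for HSP90AA1 (adjusted p = 0.00665), 0.18 for HSPD1 (adjusted p = 0.015) and 0.18 for HSPA8 (adjusted p = 0.0281). HSPD1 missed without USP18 vehicle replicate 1 (adjusted p = 0.052). HSPA8 missed without EV vehicle replicate 3 (adjusted p = 0.0739), any USP18 vehicle library (adjusted p from 0.0612 to 0.0836), CP18 EV replicate 2 (adjusted p = 0.0787) or CP18 USP18 replicate 3 (adjusted p = 0.0655).

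CP14 gave 5 members with a different response at 1 µM, where 5.79% of genes passed, 2 at 2.5 µM, where 8% passed, and 4 at 5 µM, where 27.7% passed. At 1 µM all 5 were higher in USP18 cells: HSPE1 by 0.24, HSP90AA1 by 0.23, HSPA8 by 0.20, HSPA1A by 0.14 and HSPD1 by 0.13. At 2.5 µM the HSPA1A response was 0.18 higher (adjusted p = 0.0171) and the HSPH1 response 0.22 lower, a difference of -0.22 (adjusted p = 0.0179). HSPH1 stood at 254, 239 and 239 CPM in EV cells at that dose and at 212, 213 and 229 CPM in USP18 cells. At 5 µM the 4 that passed fell further in USP18 cells: HSPA8 by a difference of -0.58 (SE 0.0658, adjusted p = 1.12e-06), HSPH1 by -0.28 (adjusted p = 0.00302), HSPD1 by -0.24 (adjusted p = 3.27e-04) and HSP90AA1 by -0.19 (adjusted p = 0.0479). For HSPA1A the difference at 5 µM was -0.0050 (95% interval -0.24 to 0.23, adjusted p = 0.981), a value that depends on CP14 USP18 replicate 1.

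Several of these differences with CP14 rested on single libraries. At 1 µM HSPA1A missed in 10 of the 12 refits without a library (adjusted p from 0.0586 to 0.104 in those) and when counted with HSPA1B (0.11, adjusted p = 0.0881), and HSPD1 missed in 8 (adjusted p from 0.0521 to 0.0797). At 2.5 µM HSPA1A missed without EV vehicle replicate 1 (adjusted p = 0.0537) or CP14 USP18 replicate 2 (adjusted p = 0.058), and HSPH1 without EV vehicle replicate 2 (adjusted p = 0.0553), USP18 vehicle replicate 3 (adjusted p = 0.0585) or CP14 EV replicate 1 (adjusted p = 0.0518). At 5 µM HSP90AA1 missed in 9 of 12 refits (adjusted p from 0.0652 to 0.142), by scaling with totals (adjusted p = 0.0666) and by DESeq2 (adjusted p = 0.121). Without CP14 USP18 replicate 1 at 5 µM, 7 members passed in place of 4. HSP90AA1, at -0.11, was not among them, and the 4 gained had the other sign: HSPA1A at 0.155 (adjusted p = 0.043), HSPA1B at 0.189 (adjusted p = 0.0325), DNAJB1 at 0.174 (adjusted p = 0.012) and BAG3 at 0.258 (adjusted p = 0.00163). With all libraries BAG3 was at 0.185 (adjusted p = 0.053), and it passed with relative log expression factors (adjusted p = 0.0464), totals (adjusted p = 0.039), no filter (adjusted p = 0.0377), the fixed filter (adjusted p = 0.0296) and the fit of all 54 libraries (adjusted p = 0.0177).

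Ordered by group mean, the members fall into a common pattern with exceptions. HSPA1A had its 4 highest groups with CP2 and CP18 at 5 µM: 409 ± 20.2 and 389 ± 10.7 CPM in EV cells and 382 ± 8.14 and 367 ± 22.8 CPM in USP18 cells. Neighbours among these 4 did not differ beyond their SD, and the next group, CP14 at 2.5 µM in EV cells, was lower at 309 ± 10.7 CPM. The lowest groups were CP14 at 5 µM, with 144 ± 3.36 CPM in EV and 114 ± 23.5 CPM in USP18 cells. The vehicle groups ranked between them, at 291 ± 4.24 and 233 ± 2.51 CPM. CP14 at 5 µM in USP18 cells had the lowest mean for 9 members. For HSPA1B, DNAJB1 and HSPB1 it did not differ from that dose in EV cells beyond the SD, and scaled by totals alone DNAJB1 had the means in the other order, 154 CPM in EV and 158 CPM in USP18 cells. With that scaling DNAJB1 in the USP18 group also lay above CP2 at 2 µM (155 CPM) and vehicle (157 CPM) in USP18 cells. The exception was BAG3: its lowest group was CP14 at 5 µM in EV cells, 80.8 ± 2.54 CPM against 94.6 ± 8.48 CPM.

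The highest mean was seen with CP2 or CP18 at 5 µM for 9 members, but for BAG3 alone did it differ from the next group beyond the SD. It was CP2 at 5 µM in USP18 cells for HSPA8 (2465 ± 62.4 CPM), HSPH1 (302 ± 15.3 CPM), HSP90AA1 (3240.1 ± 51.5 CPM) and BAG3 (132 ± 2.24 CPM), and in EV cells for HSPA1A and HSPA1B. CP18 at 5 µM gave the highest group for DNAJB1 in USP18 cells (195 ± 3.55 CPM) and for HSPD1 (1490.2 ± 50.4 CPM) and HSPE1 (268 ± 19.7 CPM) in EV cells. HSPB1 was highest with CP18 at 1 µM in USP18 cells, 299.6 ± 11.4 CPM, but its upper 9 groups did not differ from their neighbours beyond their SD, and with totals alone CP14 at 1 µM in USP18 cells came higher, at 297 CPM against 296 CPM. The span from lowest to highest was wide for HSPE1, with 78.5 ± 6.29 CPM at the bottom, and narrow for DNAJB1, with 151 ± 15.5 CPM.

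Over the 16 comparisons with vehicle, HSP90AA1 passed most often, higher in 11 and lower in 2. HSPA8 was higher in 10 and lower in 2, HSPH1 and HSPD1 each higher in 9 and lower in 2, HSPE1 higher in 8 and lower in 2, and HSPA1A higher in 7 and lower in 3. HSPA1B passed in 6, 4 of them higher, as did DNAJB1, with 5 higher, HSPB1, with 4, and BAG3, with 3. The shares over all genes stand with each comparison above. HSP90AA1 and HSPA8 also had the highest levels among the members, 2472 and 1801 CPM in EV vehicle cells. The part of level in this ranking was not tested.

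The likeness of the patterns was described by Pearson's r over the 18 group means of log2 CPM, with no p-value. Among members r was lowest for DNAJB1 with HSPB1, 0.580, and highest for HSPA1A with HSPA1B, 0.985, whose reads overlap, then for HSPD1 with HSPE1, 0.983, and HSP90AA1 with HSPH1, 0.969. Among the 16836 genes tested, those most like HSPA1A after HSPA1B were HSP90AB1 (0.963), the constitutive cytosolic HSP90, TCOF1 (0.959), which acts in ribosomal RNA synthesis, SCFD2 (0.955) and CD3EAP (0.941), a subunit of RNA polymerase I. Those most like HSPD1 were DDX1 (0.985), an RNA helicase, CCT3 (0.985), a subunit of the cytosolic chaperonin, PRPF31 (0.984), a splicing factor, HSPE1 (0.983) and ATP5IF1 (0.981), the inhibitor of mitochondrial ATP synthase.

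Other genes of the chaperone network were read from 7 lists, beside the same counts over all genes tested. With CP2 at 5 µM, 5.31% of genes rose and 6.83% fell in EV cells, and 8.65% rose and 10.3% fell in USP18 cells. With CP18 the shares were 4.09% and 4.30% in EV cells and 4.32% and 6.40% in USP18 cells, and with CP14 31.0% and 32.1% in EV cells and 34.4% and 34.3% in USP18 cells. The map of lists gives the counts at 5 µM.

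**Figure D5:**
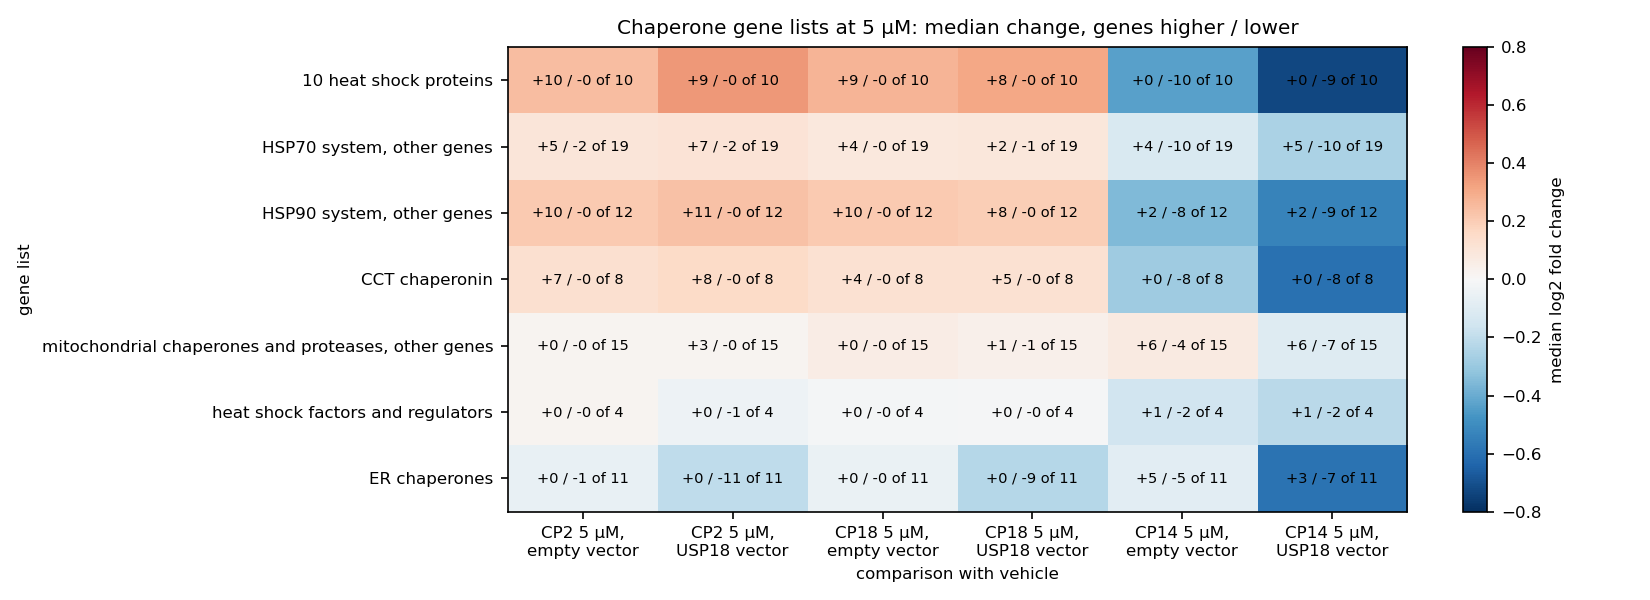
Median log2 fold change at 5 µM (colour) for the 10 members and 6 other chaperone lists (vertical axis) in each comparison with vehicle (horizontal axis), with the number of genes higher and lower of those tested. The HSP90 partners and the CCT chaperonin are red with CP2 and CP18 and blue with CP14, while the ER chaperones have 11 of 11 lower with CP2 in USP18 cells.

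At 5 µM most partners of HSP90 moved in the direction of the members. Of 12 tested, 10 rose in EV and 11 in USP18 cells with CP2 at 5 µM (median 0.21 and 0.23), and 10 and 8 with CP18 (0.21 and 0.20). With CP14, 8 fell and 2 rose in EV cells (-0.35), and 9 fell and 2 rose in USP18 cells (-0.53), the 2 being CDC37 and TTC4. CHORDC1, a partner of HSP90, rose by 0.31 in EV cells (SE 0.0441, adjusted p = 1.43e-04) and 0.38 in USP18 cells with CP2, and FKBP4, which guides steroid receptors, by 0.28 and 0.31. With CP14, STIP1, which joins HSP70 to HSP90, had a log2 fold change of -0.59 in EV and -0.63 in USP18 cells, AHSA1, an activator of HSP90, -0.47 and -0.72, and FKBP5 -0.78 and -0.69.

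The cytosolic chaperonin CCT, which folds actin and tubulin, showed 7 of 8 subunits higher in EV and 8 in USP18 cells with CP2 at 5 µM (median 0.13 and 0.15). With CP18 there were 4 higher in EV cells (CCT5, CCT7, CCT6A and CCT2) and 5 in USP18 cells (CCT5, CCT6A, CCT2, CCT3 and CCT4), with 0.12 as the median in each. With CP14 all 8 fell in both (-0.28 and -0.60), TCP1 by -0.50 and -0.80 and CCT8 by -0.39 and -0.81. These counts are sensitive: in USP18 cells with CP18, leaving out any of the 6 libraries compared brought the 5 down to 0 or 1, and in EV cells the refits gave 1 to 7 with CP2 and 1 to 4 with CP18.

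The other genes of the HSP70 system, HSP70 genes and their partners, were mixed. Of 19 tested, CP2 at 5 µM raised 5 in EV cells (DNAJA1, HSPA4L, DNAJC7, DNAJB6 and HSPA4) and lowered 2 (HSPA2 and HSPA13), and raised 7 and lowered the same 2 in USP18 cells. DNAJA1, an HSP40, rose by 0.30 (SE 0.0323, adjusted p = 7.63e-06) and 0.42 (SE 0.0323, adjusted p = 3.41e-08), and with CP18 by 0.34 and 0.39. CP18 raised 4 in EV cells (DNAJA1, DNAJC7, DNAJB6 and HSPA4), and in USP18 cells raised DNAJA1 and HSPA4L and lowered HSPA2. Refits without 1 library gave 1 to 9 passing with CP18 in EV cells (4) and 4 to 7 with CP2 in USP18 cells (9). The fit of only the groups compared gave 8 with CP18 in USP18 cells (3). CP14 lowered 10 in each cell type and raised 4 in EV cells (HSPA6, HSPA13, DNAJB2 and STUB1) and 5 in USP18 cells (those 4 and BAG5).

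HSPA6, an HSP70 gene that is nearly silent without stress, rose with CP14 at 5 µM while HSPA1A fell. It went from 0.702, 1.176 and 0.598 CPM to 14.8, 12.1 and 10.8 CPM in EV cells, a log2 fold change of 3.97 (SE 0.275, adjusted p = 4.56e-11). In USP18 cells it went from 1.45, 1.47 and 1.49 CPM to 12.1, 22.2 and 23.6 CPM, a log2 fold change of 3.71 (SE 0.236, adjusted p = 8.13e-12). All 6 treated libraries were above all 6 vehicle libraries, and replicate 1 of the USP18 group was again the lowest of its group. HSPA2, an HSP70 gene known from testis, had a log2 fold change of -1.93 in both cell types.

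The heat shock factors and their regulators numbered 4. CP14 at 5 µM raised HSF1 from 81.3 to 118 CPM in EV cells, a log2 fold change of 0.54 (SE 0.0427, adjusted p = 4.47e-10), and from 80.9 to 113 CPM in USP18 cells, 0.50 (SE 0.0428, adjusted p = 1.29e-09). HSBP1, which binds HSF1 trimers, had -0.45 and -0.31, and HSF2 -0.27 and -0.41. With CP2 at 5 µM HSF4 alone passed, in USP18 cells (-0.54, adjusted p = 0.012), and with CP18 none passed in either cell type by edgeR or DESeq2. HSF1 transcript with CP2 at 5 µM was at 0.06 (adjusted p = 0.366) in EV and 0.01 (adjusted p = 0.887) in USP18 cells.

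Among 15 other mitochondrial chaperones and proteases, CP2 at 5 µM raised 3 in USP18 cells (GRPEL1, CLPP and DNAJA3) and none in EV cells. CP18 at 5 µM raised GRPEL1 (adjusted p = 0.00306) and lowered CLPB (adjusted p = 0.0293) in USP18 cells by edgeR, but 1 gene of this list passed in place of 2 in each of the 6 refits without a library. With CP18 in EV cells 0 passed by edgeR and 1 by DESeq2. CP14 raised 6 in each cell type and lowered 4 in EV (AFG3L2, CLPB, SPG7 and TRAP1) and 7 in USP18 cells. The matrix protease LONP1 rose by 0.89 (SE 0.0396, adjusted p = 2.62e-14) and 0.75 with CP14, and HSPA9, the matrix HSP70, by 0.47 in EV cells and 0.58 in USP18 cells, where HSPD1 and HSPE1 fell.

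Of 8 other small heat shock protein genes 2 had enough counts to test. HSPB8, which pairs with BAG3, rose by 0.40 with CP2 (adjusted p = 0.00212) and by 1.299 with CP14 (SE 0.0906, adjusted p = 3.81e-11) at 5 µM in USP18 cells. CRYAB was near 0, at 1.59 CPM in EV vehicle and 0.311 CPM in USP18 vehicle cells, and had -2.47 and -1.58 with CP14. With CP18 at 5 µM 0 of 2 passed by edgeR and by DESeq2 in either cell type, but HSPB8 was at 0.297 in USP18 cells (adjusted p = 0.0535) and 1 of the 2 genes passed there in 5 of the alternative fits.

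The chaperones of the endoplasmic reticulum, a compartment outside the members' own, did not rise with CP2 or CP18 at 5 µM. Of 11, CP2 at 5 µM lowered 1 in EV cells (CANX) and 11 in USP18 cells (median -0.21), and CP18 lowered 9 in USP18 cells (-0.23), while most members rose. In EV cells 0 passed with CP18 by edgeR and 1 by DESeq2 (median -0.05). HSP90B1, the HSP90 of this compartment, had -0.31 with CP2 in USP18 cells (SE 0.0303, adjusted p = 1.09e-06) and PDIA4 -0.29. CP14 at 5 µM raised 5 (HSPA5, HYOU1, DNAJB9, CANX and DNAJC3) and lowered 5 (CALR, PDIA4, SDF2L1, PDIA6 and HSP90B1) in EV cells. In USP18 cells that dose raised 3 (HSPA5, DNAJB9 and HYOU1) and lowered 7. The median of the ER list was then -0.09 in EV and -0.59 in USP18 cells, beside -0.44 and -0.73 for the members. In USP18 cells most of the list thus fell with the members. HSPA5, the HSP70 of the compartment, rose by 1.19 in EV cells (SE 0.0371, adjusted p = 7.21e-17) and 0.82 in USP18 cells, and CALR changed by -1.10 and -1.57. In vehicle, 9 of 11 were higher in USP18 than in EV cells (median 0.21), where 29.0% of all genes were higher, HSPA5 and HSP90B1 by 0.46 each, where 6 members were lower. In the same vehicle comparison 5 of 12 HSP90 partners were higher and 1 lower, and 3 of 8 CCT subunits higher and 1 lower. Over all genes 28.7% were lower.

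At low doses in USP18 cells the lists were read beside all genes, of which 7.74% rose and 8.00% fell with CP18 at 1 µM, 7.19% and 7.00% with CP18 at 2.5 µM, 7.40% and 7.94% with CP14 at 1 µM, and 16.3% and 16.4% with CP14 at 2.5 µM. HSP90 partners had 9 of 12 higher with CP18 at 1 µM, 8 with CP18 at 2.5 µM and 7 with CP14 at 1 µM. CCT subunits had 8, 7 and 7 of 8 higher in these comparisons. With CP14 at 2.5 µM, 5 of 8 CCT subunits fell and 0 rose, and of the HSP90 partners 1 rose and 2 fell, where 4 members rose and BAG3 fell. ER chaperones had 4, 8 and 9 of 11 lower in the 3 comparisons, and 9 with CP14 at 2.5 µM. At 2.5 µM in EV cells 7.06% of all genes rose and 8.07% fell with CP14, and 2.34% rose with CP18. There CP14 raised 3 CCT subunits and 7 HSP90 partners and lowered 1 partner and 5 ER chaperones. CP18 raised 5 CCT subunits and 7 partners there, with 0 ER chaperones lower.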

How the data were processed

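The members and the gene lists were chosen with earlier results of these data known. The values analysed are the expected counts deposited by the authors, whose processing notes name cutadapt 1.18, STAR 2.7.0f, RSEM 1.3.1 and hg38. Expected counts were rounded to whole numbers, and 94.0% were whole already. Each fit held 12 libraries: a compound and dose in both cell types and the 6 vehicle libraries. Comparisons between compounds or doses were fitted on the 12 libraries of both in both cell types, and the vehicle comparison on its 6 libraries. Tests used edgeR 4.0.16 (quasi-likelihood F test, scaling by the trimmed mean of M values, its expression filter set to counts of 10 and totals of 15) with limma 3.58.1 in R 4.3.3. P-values were adjusted by the Benjamini-Hochberg method over all genes tested in a comparison.

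Named genes are the 10 members, USP18, up to 3 genes from each list with the largest absolute log2 fold change among those that passed in a comparison described, and the 5 genes most correlated with HSPA1A and with HSPD1. List genes named beyond this rule were chosen after their values were seen. The lists were other genes of the HSP70 system (called HSP70 genes in the counts by setting), HSP90 partners, other small heat shock proteins, the CCT chaperonin, other mitochondrial chaperones and proteases, heat shock factors with their regulators, and ER chaperones. HSPA14, which has 2 entries, was left out. Alternatives tried were relative log expression factors, library totals alone, no filter beyond a count above 0, a fixed filter of 10 counts, replicate number as a block, DESeq2 1.42.0, smaller fits restricted to the compared groups, a joint fit of the 54 libraries, summed HSPA1A and HSPA1B counts, and leaving out each library. The code was checked on simulated data.

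Some limits apply. The labels give the compounds by code, and the codes were not mapped to named compounds. Each vector is 1 engineered population, so a difference between EV and USP18 cells cannot be separated from other differences between those populations. Whether the replicates of a group were separate cultures was not stated for these libraries. All libraries come from 48 h, so the order of events was not read. The values are relative transcript levels, and a change in total RNA per cell would not show. Protein levels and chaperone activity were not measured. Reads shared by HSPA1A and HSPA1B leave the split between them uncertain. Promoter letters were matched in windows around annotated starts.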

Additional observations from a re-analysis of the deposited data

Results flagged for a closer look

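Members whose response to a compound passed a test of the difference between the cell types (response in USP18 cells minus response in EV cells, log2 scale) are listed here, each with its value.

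With CP14 at 1 µM the differences were 0.14 for HSPA1A (adjusted p = 0.0408), 0.20 for HSPA8 (adjusted p = 0.013), 0.23 for HSP90AA1 (adjusted p = 0.0048), 0.13 for HSPD1 (adjusted p = 0.0282) and 0.24 for HSPE1 (adjusted p = 0.00727).

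With CP14 at 2.5 µM they were 0.18 for HSPA1A (adjusted p = 0.0171) and -0.22 for HSPH1 (adjusted p = 0.0179).

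With CP14 at 5 µM they were -0.58 for HSPA8 (adjusted p = 1.12e-06), -0.28 for HSPH1 (adjusted p = 0.00302), -0.19 for HSP90AA1 (adjusted p = 0.0479) and -0.24 for HSPD1 (adjusted p = 3.27e-04).

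With CP18 at 1 µM they were 0.18 for HSPA8 (adjusted p = 0.0281), 0.22 for HSP90AA1 (adjusted p = 0.00665), 0.18 for HSPD1 (adjusted p = 0.015) and 0.27 for HSPE1 (adjusted p = 0.00218).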

How the results depend on the processing

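No log2 fold change of a member that passed reversed its sign in any refit. Counts of members passing that moved by more than 1.5 times, or to or from 0, are given by setting, with the value used in the text in brackets, and smaller moves are named only in part. The cause of these shifts was not tested.

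Scaling by library totals alone gave 2 members with CP2 at 2 µM in EV cells (1) and 5 for the CP18 step from 2.5 to 5 µM in USP18 cells (3), and put the ratio of highest to lowest group of HSPD1 at 2.03 (2.14). Relative log expression factors moved no member count by that much. Counts under them were 3 with CP14 at 2.5 µM in EV cells (4), 6 with CP18 at 1 µM (7) and 5 with CP18 at 2.5 µM (6) in USP18 cells, and 8 for CP14 against CP18 at 2.5 µM in USP18 cells (9). The 5 calls lost were HSPD1 with CP14 at 2.5 µM in EV cells (adjusted p = 0.0553), HSPA1A with CP18 at 1 µM (adjusted p = 0.0609) and HSPH1 with CP18 at 2.5 µM (adjusted p = 0.0522) in USP18 cells, HSPA1B for that pair (adjusted p = 0.0625) and HSP90AA1 for the difference in response to CP14 at 5 µM (adjusted p = 0.0527). These factors gave 1 mitochondrial list gene with CP18 at 5 µM in EV cells (0).

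Without a filter beyond a count above 0, members passing were 2 with CP2 at 2 µM in EV cells (1), 2 for the difference in response to CP2 at 5 µM (0), 4 for that to CP14 at 2.5 µM (2), 2 for CP14 against CP18 at 2.5 µM in EV cells (1), and 4 in EV (2) and 6 in USP18 cells (3) for the CP18 dose step. With the fixed filter of 10 counts they were 2 with CP2 at 2 µM in EV cells (1) and 2 for CP14 against CP18 at 2.5 µM in EV cells (1).

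With replicate number as a block they were 2 with CP2 at 2 µM in EV cells (1) and 2 for CP14 against CP18 at 2.5 µM in EV cells (1). The block fit lost 5 calls: DNAJB1 (adjusted p = 0.0555) and BAG3 (adjusted p = 0.0591) with CP18 at 5 µM in EV cells, where 7 members passed (9), HSPA1A for the difference in response to CP14 at 1 µM (adjusted p = 0.0585), HSPA1B for CP14 against CP18 at 2.5 µM (adjusted p = 0.0582) and HSPH1 for the CP18 dose step (adjusted p = 0.0642) in USP18 cells. In that block fit 2 CCT genes passed with CP18 at 5 µM in EV cells (4) and 2 in USP18 cells (5). Correlations of replicate deviations between groups ran from -0.137 to 0.135 for libraries with the same replicate number, with a median of -0.00101. For libraries with other replicate numbers they ran from -0.0987 to 0.119, with a median of -4.59e-04.

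DESeq2 gave 2 members with CP2 at 2 µM in EV cells (1), 3 for the difference in response to CP2 at 5 µM (0), 4 for CP14 at 2.5 µM (2), 1 for CP18 at 5 µM (0), 2 for CP14 against CP18 at 2.5 µM in EV cells (1) and 5 for the CP18 dose step in USP18 cells (3).

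Fits of only the groups compared gave 1 member with CP2 at 2 µM in USP18 cells (0), 2 for CP14 against CP18 at 2.5 µM in EV cells (1) and 6 for the CP18 dose step in USP18 cells (3). The fit of all 54 libraries gave 0 with CP2 at 2 µM (1), 0 with CP14 at 1 µM (2) and 3 with CP18 at 2.5 µM (5) in EV cells. It gave 2 for the difference in response to CP14 at 1 µM (5), 1 for CP14 at 2.5 µM (2), 0 in EV (1) and 5 in USP18 cells (9) for CP14 against CP18 at 2.5 µM, and 6 for the CP18 dose step in USP18 cells (3).

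For the lists at 5 µM, fits of only the groups compared gave with CP2 2 CCT genes (7) and 0 ER genes (1) in EV cells and 6 mitochondrial genes (3) in USP18 cells. With CP18 they gave 2 HSP70 genes (4), 5 HSP90 partners (10) and 1 CCT gene (4) in EV cells, and 8 HSP70 genes (3), 1 small heat shock gene (0) and 4 mitochondrial genes (2) in USP18 cells. With CP14 in USP18 cells they gave 1 small heat shock gene (2), as did totals, the fixed filter and DESeq2, and in EV cells the fixed filter gave 0 (1). The fit of all 54 libraries gave 3 ER genes (1) with CP2 in EV cells, 5 mitochondrial genes (3) with CP2 in USP18 cells, 9 HSP70 (4), 2 mitochondrial (0) and 1 ER gene (0) with CP18 in EV cells, and 7 HSP70 (3), 1 small heat shock (0) and 4 mitochondrial genes (2) with CP18 in USP18 cells. Without a filter there were 2 ER genes (1) with CP2 in EV cells, 7 HSP70 (4) and 1 mitochondrial gene (0) with CP18 in EV cells, and 1 small heat shock gene (0), 3 CCT genes (5) and 1 heat shock factor (0) with CP18 in USP18 cells. The fixed filter gave 2 mitochondrial genes (0) in EV cells and 1 small heat shock gene (0) in USP18 cells with CP18, and totals gave that 1 too. DESeq2 gave 3 ER genes (1) with CP2, and 1 mitochondrial (0) and 1 ER gene (0) with CP18, all in EV cells.

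Leaving out each library in turn gave these lowest and highest counts of members: CP2 at 2 µM in EV cells 0 to 3 (1), CP2 at 5 µM in EV cells 8 to 10 (10), CP14 at 1 µM in EV cells 0 to 2 (2), CP14 at 2.5 µM in USP18 cells 3 to 6 (5), CP14 at 5 µM in EV cells 9 to 10 (10), CP18 at 2.5 µM in EV cells 3 to 6 (5), and CP18 at 5 µM in EV cells 7 to 10 (9). For the difference between cell types they were 0 to 3 (0) for CP2 at 5 µM, 3 to 5 (5), 1 to 4 (2) and 3 to 7 (4) for CP14 at 1, 2.5 and 5 µM, and 2 to 4 (4) and 0 to 1 (0) for CP18 at 1 and 5 µM. CP14 against CP18 at 2.5 µM in EV cells gave 0 to 1 (1), and the CP18 dose step in EV cells 2 to 5 (2). In USP18 cells that pair gave 6 to 8 (9), that dose step 2 to 2 (3), CP14 at 1 µM 5 to 6 (6), CP18 at 1 µM 5 to 7 (7), CP18 at 2.5 µM 5 to 6 (6) and the CP14 dose step 8 to 10 (9). CP14 at 2.5 µM in EV cells gave 3 to 4 (4) and the vehicle comparison 5 to 6 (6). For the lists at 5 µM the ranges with CP2 in EV cells were 1 to 7 CCT (7), 0 to 3 ER (1) and 0 to 1 mitochondrial genes (0), and in USP18 cells 4 to 7 HSP70 (9), 1 to 3 mitochondrial genes (3) and 0 to 1 heat shock factors (1). With CP18 in EV cells they were 1 to 9 HSP70 (4), 6 to 11 HSP90 (10), 1 to 4 CCT (4), 0 to 2 mitochondrial (0) and 0 to 1 ER genes (0), and in USP18 cells 0 to 1 CCT (5), 1 to 1 mitochondrial (2) and 0 to 1 small heat shock genes (0). With CP14 in USP18 cells 1 to 2 small heat shock genes passed (2).

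Counts over all genes moved by more than 1.5 times in some of the 39 comparisons: 17 in the fit of all 54 libraries, 15 without a filter, 10 with DESeq2, 5 with the fixed filter, 2 with the block and 0 with other scaling, and 9 of 30 in fits of only the groups compared. With CP18 at 5 µM the last gave 425 genes in EV cells (1315) and 3096 in USP18 cells (1680), and with CP2 at 5 µM 1077 in EV cells (1913). Refits without 1 library moved the count by that much 113 times and left it 169 times. In EV cells they gave 441 to 2213 genes with CP18 at 5 µM (1315) and 2 to 151 at 1 µM (58). CP14 against CP18 at 2.5 µM there gave 44 to 137 (283). For CP14 at 5 µM against vehicle 0 such refits moved it in either cell type. The shares of all genes given beside the members rest on these counts. With CP18 at 1 µM in EV cells the counts were 414 without a filter, 121 with the fixed filter, 97 with the block, 109 with DESeq2 and 0 in the fit of all libraries (58).

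The share of higher calls among all that passed moved by more than 10 points in some settings. For CP2 at 2 µM in USP18 cells totals gave 38.8% (27.9%). For CP18 at 1 µM totals gave 38.4% in USP18 cells (49.2%) and 25.4% for the difference between cell types (38.6%). For the difference with CP2 at 5 µM DESeq2 gave 42.1% (29.0%), and with CP18 at 5 µM 32.4% (16.67%), where no filter gave 42.6%. For CP14 against CP18 at 2.5 µM in EV cells totals turned the balance, 57.0% (45.9%), and for the CP18 dose step in EV cells DESeq2 gave 68.3% (96.6%). The other shifts of this size were in comparisons with few genes passing or in fits without a filter. No scaling moved the median log2 fold change by more than 0.0687.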
